A study of Mus musculus with 8 samples.

Results

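The microRNAs (miRNAs) miR-192, miR-194 and miR-215 are small RNAs made from 2 pairs of neighbouring hairpins and are best known from epithelia of the kidney, gut and liver. Their 7 mature forms on the array were chosen by name: mmu-miR-192-5p, mmu-miR-192-3p, mmu-miR-194-5p, mmu-miR-194-1-3p, mmu-miR-194-2-3p, mmu-miR-215-5p and mmu-miR-215-3p, given below without the mouse prefix. They are 7 of the 1881 mouse miRNAs and 14 of the 4415 mouse probes measured. Each mature form has 2 probes, and 3 of the 7 (miR-192-5p, miR-192-3p and miR-194-5p) were detected widely enough to be tested among 408 miRNAs.

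A miRNA guides a silencing complex to messenger RNAs, mainly through the seed near its 5′ end, and lowers their stability and translation. The 5p and 3p forms of a hairpin come from its opposite arms, and usually 1 arm is kept while the other is degraded. In the kidney, miR-192 and miR-194 are known as miRNAs of tubule cells, while in cultured human cells they and miR-215 are induced by the tumour suppressor p53, and miR-192 has also been studied as a miRNA that responds to the fibrosis factor TGF-β.

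The study compared kidneys in unilateral ureteral obstruction (UUO), where blocked urine flow leads to tubule injury, inflammation and scarring, with kidneys of sham-operated animals. UUO samples 1 to 4 and Sham samples 1, 2, 3 and 8 were kidney tissue from 8-week-old C57BL/6 males, on day 7 after surgery, and each was measured on 1 single-colour Agilent miRNA array. The labels name no part of the kidney, no side for the sham kidney, no other treatment or allele, and do not say in words that the samples were separate mice. If some were not, the p-values measure only the spread between these samples. In whole tissue, fewer cells of a type and less RNA per cell cannot be told apart, and the tubule in the usual description of these miRNAs was not measured separately here.

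The mature sequences are shown 5′ to 3′ because they decide which forms share a seed and which the probes can tell apart. They are RefSeq sequences on mouse build GRCm38.p6, with the seed (bases 2 to 8) in capitals.
miR-192-5p: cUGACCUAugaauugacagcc
miR-215-5p: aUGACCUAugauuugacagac
miR-194-5p: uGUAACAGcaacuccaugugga
miR-192-3p: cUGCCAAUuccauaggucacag
miR-194-1-3p: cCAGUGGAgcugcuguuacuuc
miR-194-2-3p: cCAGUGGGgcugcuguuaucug
miR-215-3p: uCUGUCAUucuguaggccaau

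All 7 forms were matched by name. miR-192-5p and miR-215-5p shared the seed and differed at 3 of 21 bases, and no other mature name in the table had that seed. miR-194-1-3p and miR-194-2-3p differed at 4 of 22 bases and had different seeds. miR-194-5p was identical from both of its hairpins, so its signal does not show which locus it came from.

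The hairpins lie on 2 chromosomes, and each pair holds 1 copy of miR-194. The pair on chromosome 19 gives miR-194-2 at chr19:6264643-6264728 and miR-192 at chr19:6264844-6264932, both on the plus strand and 115 bases apart. No annotated gene of the RefSeq table overlapped them, and the nearest coding genes within 20 kb were Atg2a and Ehd1. The pair on chromosome 1 gives miR-194-1 at chr1:185313319-185313385 and miR-215 at chr1:185313581-185313692, on the plus strand and 195 bases apart, and both overlap the span of Iars2. The 2 miR-194 hairpins are printed with their mature arms in capitals, since only their 3p arms tell the loci apart.
Mir194-2: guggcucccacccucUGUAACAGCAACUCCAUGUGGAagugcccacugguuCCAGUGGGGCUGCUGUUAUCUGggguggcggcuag
Mir194-1: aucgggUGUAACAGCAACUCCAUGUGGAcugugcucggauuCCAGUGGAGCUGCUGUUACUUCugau

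The probes are DNA complementary to the 3′ part of each miRNA, and all 14 matched their own miRNA with 0 mismatches. Those of miR-192-5p and miR-215-5p are shown because these forms are the closest in sequence.
Probe A_54_P2461 for miR-192-5p: GGCTGTCAATTCATAGGTC
Probe A_54_P1552 for miR-215-5p: GTCTGTCAAATCATAGGT
Each of the 4 probes of these forms had 2 mismatches to the other form, and cross-hybridisation was not tested. The miR-215-5p probes read between −1.21 and 1.05 on arrays where the brighter miR-192-5p probe read 1749 to 4218, so no signal from miR-192-5p was seen on them.

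Between 740 and 800 probes were detected on UUO arrays and between 720 and 754 on Sham arrays, no spot was saturated, and correlations over tested miRNAs were 0.991 to 0.999 within groups and 0.948 to 0.964 between groups. All UUO arrays lay in slide row 2 and all Sham arrays in slide row 1, so row and group cannot be told apart. Signals are log2 of a probe's intensity divided by the 75th percentile of its array, taken over the 623 probes that were detected on every array. This percentile was 435 to 482 on UUO arrays and 394 to 413 on Sham arrays, while the median of the dmr control features, a set of control probes on the array, was 804 to 888 on UUO arrays and 955 to 1004 on Sham arrays. Neither measure overlapped between the groups, and the members' values under other scalings are given with the results. The signal has meaning only between arrays for the same probe, not between probes.

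The 3 detected forms were all lower in UUO kidneys. miR-192-5p was 2.20-fold lower, its partner arm miR-192-3p was 2.40-fold lower and miR-194-5p was 2.12-fold lower than in Sham kidneys. Every UUO array lay below every Sham array for each of them. The products specific to the chromosome 1 pair, miR-215-5p, miR-215-3p and miR-194-1-3p, stayed at background on all arrays of both groups. Calls are limma adjusted p-values under 0.05 (Benjamini-Hochberg over all 408 miRNAs), and the decline of the 3 is to be read against a wide change: 67.4% of tested miRNAs were called, 27.7% were called lower, and 26.2% had all UUO arrays below all Sham arrays. Being called and at least 2-fold lower, as all 3 forms were, was less common, at 5.15% of tested miRNAs. The 2-fold size depended on the scaling: without scaling it was 1.92-fold for miR-192-5p and 1.85-fold for miR-194-5p, and with scaling to the dmr control features it was 1.66-fold, 1.81-fold and 1.60-fold for miR-192-5p, miR-192-3p and miR-194-5p. Over all 408, the median log2 fold change was 0.06.

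For miR-192-5p, the form usually kept from the miR-192 hairpin, the log2 signal was 2.12, 2.33, 2.22 and 1.86 in UUO samples 1 to 4. It was 3.09, 3.37, 3.39 and 3.22 in Sham samples 1, 2, 3 and 8. The highest UUO sample thus lay clearly under the lowest Sham sample. The means were 2.13 ± 0.20 in UUO and 3.27 ± 0.14 in Sham (SD, n = 4 each), and the log2 fold change was −1.14 ± 0.11 (SE, limma adjusted p = 4.38e-05). This was the 13th lowest log2 fold change of the 408.

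miR-192-3p, from the opposite arm of the same hairpin, gave a dim but detected signal on all 8 arrays. Its log2 signal was −4.40, −4.11, −4.23 and −4.62 in UUO samples 1 to 4, against −3.19, −2.94, −3.07 and −3.10 in Sham samples 1, 2, 3 and 8. The groups did not overlap, and the UUO values lay near the floor of −4.89, the level below which signals were not read. The log2 fold change was −1.26 ± 0.11 (SE, limma adjusted p = 2.39e-05), from means of −4.34 ± 0.22 in UUO and −3.08 ± 0.10 in Sham (SD, n = 4 each). It ranked 8th from the lowest. Its size depended on how dim signals were treated: it was −1.87 with the software's total signal per miRNA and −0.55 (1.46-fold) with a normexp background correction, with a limma adjusted p of at most 0.00111 over all alternatives.

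miR-194-5p, which either locus can make, had a log2 signal of 1.09, 1.32, 1.18 and 0.86 in UUO samples 1 to 4. In Sham samples 1, 2, 3 and 8 it was 2.04, 2.32, 2.27 and 2.14. Again every UUO sample was below every Sham sample. The means were 1.11 ± 0.20 in UUO and 2.19 ± 0.13 in Sham (SD, n = 4 each), with a log2 fold change of −1.08 ± 0.11 (SE, limma adjusted p = 4.66e-05), the 16th lowest.

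**Figure D1:**
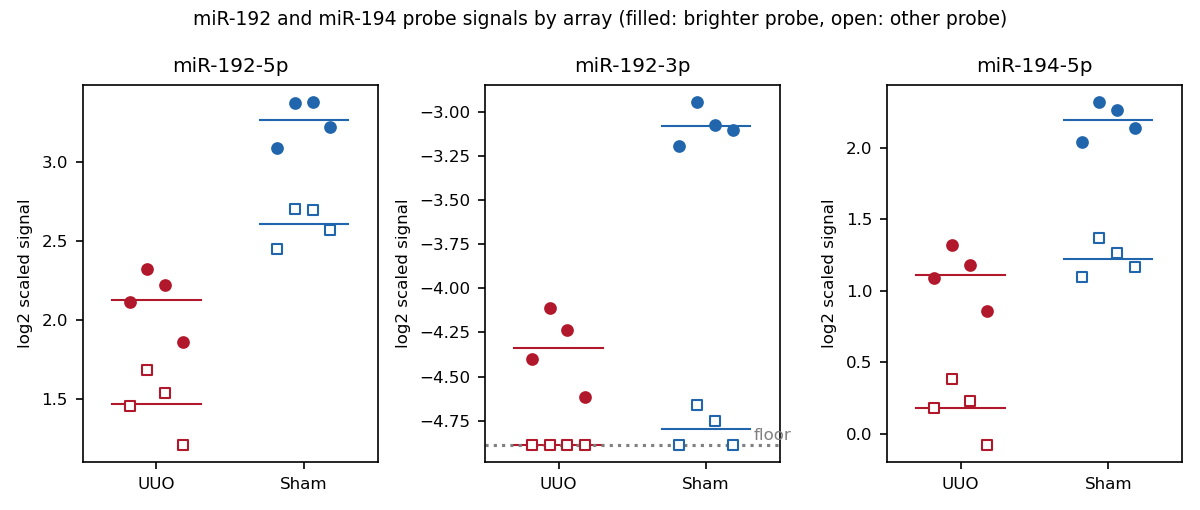
log2 scaled signal of miR-192-5p, miR-192-3p and miR-194-5p on each array, UUO left of Sham (4 arrays each), for the brighter probe (filled circles) and the other probe (open squares), with lines at the group means and a dotted line at the floor. For the brighter probe all UUO points sit below all Sham points, by 1.08 to 1.26 between means. The other miR-192-3p probe is at the floor on all UUO arrays and on Sham 1 and Sham 8.

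The lower values were already present before scaling. For the brighter miR-192-5p probe, the processed intensity was 2089, 2179, 2151 and 1749 in UUO samples 1 to 4 and 3520, 4088, 4218 and 3844 in Sham samples 1, 2, 3 and 8. For the brighter miR-194-5p probe it was 1025, 1085, 1046 and 871 in UUO and 1701, 1974, 1943 and 1814 in Sham. Without scaling, the mean intensity in UUO was thus 0.521 of that in Sham for miR-192-5p and 0.542 for miR-194-5p. For miR-192-3p, intensities were 22.8, 25.2, 24.5 and 19.6 in UUO and 45.1, 51.3, 48.0 and 47.9 in Sham, a ratio of 0.479.

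The second probe of each miRNA, a base shorter, gave a like result where it was bright enough. For miR-192-5p its log2 fold change was −1.14 ± 0.11 (SE, limma adjusted p = 3.64e-05 over 771 probes, of which 27.2% were called lower and 25.6% had all UUO arrays below all Sham arrays). For miR-194-5p it was −1.05 ± 0.10 (SE, limma adjusted p = 5.05e-05). Probes of 1 miRNA on 1 array are not replicates. The shorter miR-192-3p probe passed detection on 0 UUO arrays and 2 Sham arrays and was not tested. Of its spots, 2 of 60 on UUO arrays and 35 of 59 on Sham arrays were well above background, and its intensity was 7.91, 8.34, 6.61 and 4.87 in UUO samples 1 to 4, against 12.5 to 15.6 over the Sham samples, so the groups did not overlap.

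Samples of a group ranked much alike for the 3 forms. UUO 4 was the lowest UUO sample for all 3, at 0.27, 0.28 and 0.26 under the group's mean log2 signal for miR-192-5p, miR-192-3p and miR-194-5p, and UUO 2 was the highest for all 3. Among Sham samples, Sham 1 was the lowest for all 3, and the highest was Sham 3 for miR-192-5p and Sham 2 for miR-192-3p and miR-194-5p. The order with UUO 2 highest, UUO 4 lowest and Sham 1 lowest was not particular to them, since 32 of the 408 tested miRNAs had it. Samples in slide columns 1 and 4 (UUO 1, UUO 4, Sham 1 and Sham 8) lay under their group's mean for all 3 forms. Those in columns 2 and 3 lay above it. Each group had 1 array in every column, so a term for outer against inner columns could not move the estimate of −1.14 for miR-192-5p. Its SE with this term was 0.070 instead of 0.111, and the term matches the pattern just described in the same values. Each sample was on 1 array, so column and sample cannot be told apart. Leaving out any 1 sample kept each of the 3 called lower, with log2 fold changes of −1.20 to −1.05 for miR-192-5p, −1.34 to −1.17 for miR-192-3p and −1.15 to −0.995 for miR-194-5p.

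The other 4 forms were detected on 0 of 8 arrays, where a probe counts as detected if more than 50% of its spots are well above background. miR-194-2-3p, the partner arm of miR-194-5p at the chromosome 19 locus, came closest. Its brighter probe had an intensity of 5.04, 4.77, 4.69 and 4.67 in UUO samples 1 to 4 and 8.68, 11.6, 11.8 and 11.4 in Sham samples 1, 2, 3 and 8. The groups did not overlap, which held for 3.32% of the 3495 probes detected on no array (3.89% after scaling). The means were 4.79 ± 0.17 in UUO and 10.9 ± 1.47 in Sham (SD, n = 4 each). Well above background were 0 of 59 spots on UUO arrays and 12 of 59 on Sham arrays. The software's separate mark for positive and significant spots was met by 47 of 59 and 59 of 59. Its own call per miRNA was detected on Sham 2, 3 and 8 and on no UUO array. The lowest intensity of any probe detected by the rule used here was 11.9 to 13.3, depending on the array. The values of this probe lie at or under that limit, so no fold change or test is given. The second miR-194-2-3p probe had a mean of 0.17 in UUO and 1.60 in Sham, and there too the groups did not overlap.

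The 6 probes for miR-194-1-3p, miR-215-5p and miR-215-3p, the products that belong to the chromosome 1 locus alone, read background. Their intensities lay between −1.58 and 1.05 on UUO arrays (median −0.52) and between −1.46 and 0.775 on Sham arrays (median −0.27). Of their spots, 0 of 350 on UUO arrays and 0 of 358 on Sham arrays were well above background. For none of the 6 probes were all UUO arrays below all Sham arrays. A difference in miR-215 was therefore not detectable with these signals.

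**Figure D2:**
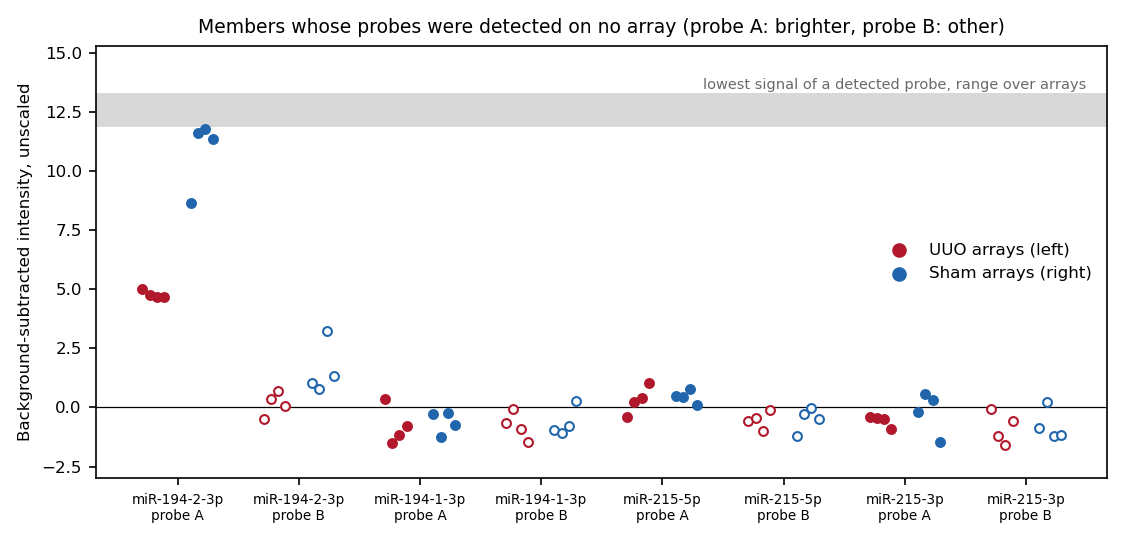
Unscaled, background-subtracted intensity on each array (points), UUO left of Sham, for the brighter (filled) and the other (open) probe of the 4 members detected on no array; the grey band spans the lowest intensity of a detected probe over the arrays. The miR-194-2-3p probes sit lower on UUO arrays, while those of miR-194-1-3p, miR-215-5p and miR-215-3p scatter around 0 in both groups.

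In the authors' deposited ratio table, each miRNA is divided by its median over the arrays, and the 3 detected forms were lower in UUO there as well. In that deposited table, miR-192-5p was 0.603, 0.718, 0.666 and 0.487 in UUO samples 1 to 4 and 1.39, 1.84, 1.89 and 1.54 in Sham samples 1, 2, 3 and 8. In the authors' deposited table, miR-194-5p was 0.612, 0.730, 0.666 and 0.496 in UUO and 1.37, 1.82, 1.77 and 1.47 in Sham. For miR-194-2-3p, the authors' deposited table gave 0.809, 0.903, 0.867 and 0.766 in UUO, against 1.11, 41.9, 42.6 and 36.3 in Sham. That wide gap was set by a fill value: the software's total intensity was 0.1, its entry for a miRNA it does not detect, on all UUO arrays and on Sham 1, and 3.32, 3.33 and 3.27 on Sham 2, 3 and 8.

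Whether the detected forms fell by the same amount was examined within each array, as the difference between 2 log2 signals, which cancels the scaling of the array. Over the 3 pairs, exact two-sided permutation tests over the 8 samples (70 arrangements, smallest possible p = 0.0286) were adjusted by Benjamini-Hochberg. miR-192-5p minus miR-194-5p was 1.02 ± 0.02 in UUO and 1.08 ± 0.03 in Sham (SD, n = 4 each), a change of −0.06 (exact permutation p = 0.0286, adjusted 0.0429). The fall of the 2 forms thus differed by 0.06 on the log2 scale, with groups that did not overlap, and the sign of this small difference turned under quantile normalization (0.12). miR-192-3p minus miR-194-5p was −5.45 ± 0.03 in UUO and −5.27 ± 0.05 in Sham (SD, n = 4 each), a change of −0.18 (exact permutation p = 0.0286, adjusted 0.0429). miR-192-5p minus miR-192-3p was 6.47 ± 0.03 in UUO and 6.35 ± 0.08 in Sham (SD, n = 4 each), a change of 0.13 with overlapping groups (exact permutation p = 0.0571, adjusted 0.0571). Both differences with miR-192-3p changed sign under a normexp correction, a mean over both probes, or a floor set 2 times higher. Each was then called in the opposite direction (adjusted exact permutation p = 0.0286), so no direction is given for them.

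The decline was then set against the families closest in use as kidney epithelial miRNAs, the miR-30 5p forms, abundant in tubule cells and podocytes, and the miR-200 family, which restrains the epithelial-mesenchymal transition. miR-192-5p minus the mean of the 5 miR-200 family miRNAs was 0.46 ± 0.14 in UUO and 1.47 ± 0.27 in Sham (SD, n = 4 each), a change of −1.01 (exact permutation p = 0.0286, adjusted over 6 comparisons 0.0429). The same change was −1.13 for miR-192-3p and −0.95 for miR-194-5p (exact permutation p = 0.0286 and adjusted 0.0429 for each), and in all 3 every UUO array lay below every Sham array. The members thus fell more than the mean of the miR-200 family, whose own changes ran from −0.44 to 0.25. Such a gap need not be particular to the members. On their own signal, 26.2% of all tested miRNAs had all UUO arrays below all Sham arrays, and the share against the miR-200 mean was not computed. Against the miR-30 5p family, the change was −0.29 for miR-192-5p (exact permutation p = 0.0857, adjusted 0.103) and −0.23 for miR-194-5p (exact permutation p = 0.143, adjusted 0.143), and both sets of arrays overlapped. For miR-192-3p it was −0.42 (exact permutation p = 0.0286, adjusted 0.0429), a change whose sign turned under the same 3 treatments of dim signals. With 7 arrays, the adjusted p of each miR-200 comparison was 0.0571 whenever any 1 UUO sample was left out, as it also was on all 8 with the mean over probes or the doubled floor, and that of miR-192-3p against miR-30 was then 0.0857 without UUO 1, 2, 3 or 4.

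**Figure D3:**
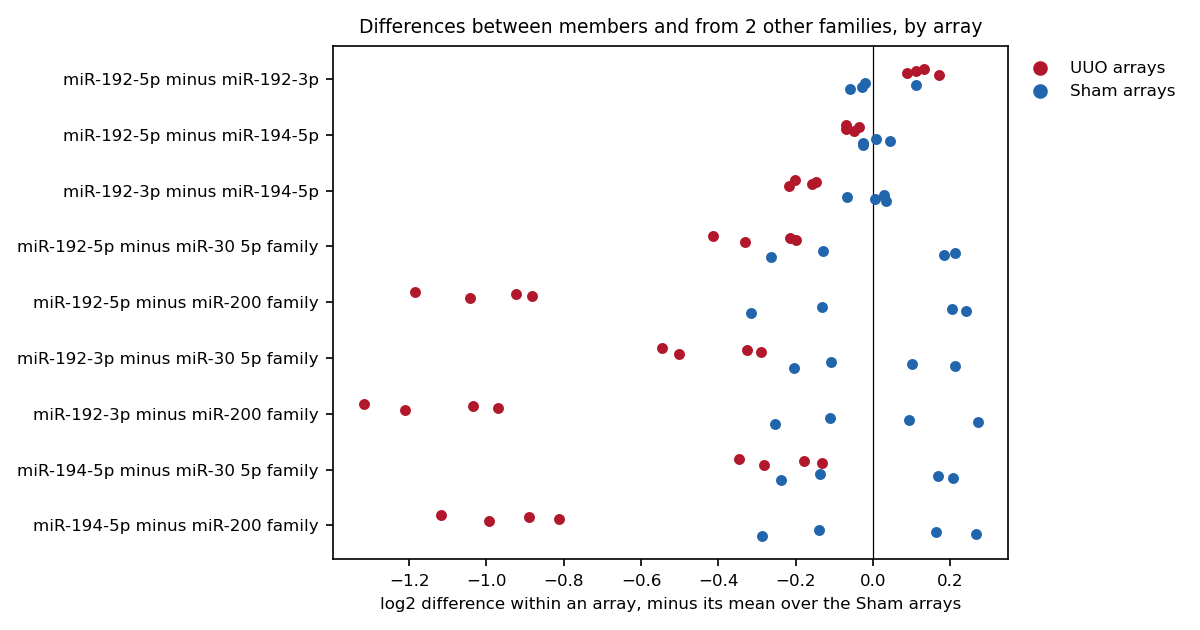
Difference between 2 log2 signals on each array, minus its mean over the Sham arrays, for the 3 pairs of members and for each member against the miR-30 5p and miR-200 families. UUO arrays lie 0.95 to 1.13 below Sham arrays against the miR-200 family and overlap them for miR-192-5p and miR-194-5p against miR-30.

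The miR-30 5p family, which includes regulators of tubule and podocyte differentiation, had 5 of 5 tested members called lower and 0 higher (27.7% of all tested miRNAs were called lower), with a median log2 fold change of −0.75 against 0.06 over all tested. Its strongest declines were those of miR-30e-5p (−1.24 ± 0.07 SE, limma adjusted p = 1.18e-06), miR-30c-5p (−1.08 ± 0.07) and miR-30a-5p (−0.75 ± 0.07). Scaling to the dmr control features left 4 of the 5 called lower, with a median of −0.35. The miR-200 family had 3 of 5 called lower and 0 higher, with a median of −0.28. miR-200a-3p fell by 0.44, miR-200b-3p by 0.34 and miR-429-3p by 0.28 on the log2 scale (limma adjusted p = 4.94e-04, 0.00113 and 0.00222). The other 2, miR-200c-3p at 0.25 ± 0.12 and miR-141-3p at 0.16 ± 0.12 (SE), were not called (limma adjusted p = 0.0888 and 0.251). Other scalings gave 2 of the 5 higher, beside 2 lower when the percentile was taken from all mouse probes, 1 lower without scaling, and 0 lower with the dmr control features, where the median was 0.12.

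Other miRNAs linked to p53 changed in both directions. Of 8 tested (the miR-34 family, miR-15a, miR-16, miR-107, miR-143 and miR-145a), 5 were called higher and 1 lower (39.7% and 27.7% of all tested miRNAs were), with a median log2 fold change of 0.23. miR-34c-5p and miR-34b-5p, direct p53 targets that restrain the cell cycle, rose by 1.18 ± 0.07 and 0.82 ± 0.09 on the log2 scale (SE, limma adjusted p = 2.05e-06 and 5.99e-05). Their family member miR-34a-5p did not rise and was not called (−0.16 ± 0.17 SE, limma adjusted p = 0.435). miR-107-3p fell by 0.61 ± 0.07 (SE, limma adjusted p = 8.10e-05). The median of this list was −0.10 with the software's total signal, which gave 2 higher and 3 lower. Of 9 other miRNAs linked to TGF-β in the kidney, 4 were tested: miR-21a-5p, a miRNA of fibrosis in many organs, rose by 2.56 ± 0.04, and the 3 miR-29 forms, which target collagen messages, were called lower, among them miR-29c-3p at −0.91 ± 0.08 and miR-29b-3p at −0.68 ± 0.07 (SE, limma adjusted p = 3.21e-09, 2.02e-05 and 3.94e-05). The remaining 5 (miR-216a-5p, miR-217-5p, miR-377-3p, miR-382-5p and miR-433-3p) were not tested. Scaling to the dmr control features left 2 of the 3 miR-29 forms called lower.

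miRNAs of other cell types did not all change in the same direction as the members. All 7 of 7 leukocyte miRNAs were called higher in UUO (39.7% of all tested miRNAs were), with a median log2 fold change of 2.12 and a summed scaled linear signal of 8.16 to 9.23 in UUO against 2.19 to 2.64 in Sham. Among them were miR-223-3p of myeloid cells (2.30 ± 0.07) and miR-142a-3p of blood cells (2.28 ± 0.07). miR-511-3p of macrophages was on no Sham array well above background and was at least 5.61-fold higher in UUO. It passed the detection filter through UUO arrays alone, with its Sham values at the floor, so no p-value is given. Of the leukocyte miRNAs detected on all 8 arrays, 6 of 6 were called higher, as were 135 of all 335 such miRNAs. A fold given as at least compares the mean of the measured group with the floor, at or under which the other group lay on every array.

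Of the fibroblast and smooth muscle miRNAs, 6 of 7 were called higher and 0 lower (39.7% and 27.7% of all tested miRNAs were). One of them, miR-214-5p, was detected on no Sham array and passed the filter through UUO arrays alone. Of those detected on all 8 arrays, 5 of 6 were called higher, as were 135 of all 335 such miRNAs. The median log2 fold change was 1.62, and the summed scaled linear signal was 15.9 to 18.4 in UUO against 6.21 to 6.85 in Sham. Under quantile normalization 5 were higher and 1 lower. The strongest were miR-214-3p (2.42 ± 0.06), miR-199a-5p (1.95 ± 0.07) and miR-199a-3p (1.80 ± 0.07). miR-199a and miR-214 can derive from the noncoding transcript Dnm3os. The part that a changed share of leukocytes or fibroblasts has in the members' decline was not tested.

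Of 2 endothelial miRNAs, miR-126a-5p was called lower (−0.22 ± 0.07 SE, limma adjusted p = 0.0169), as were 27.7% of all tested miRNAs. The other, miR-126a-3p, was not called (−0.14 ± 0.06 SE, limma adjusted p = 0.0578). Both were called higher when scaled to the dmr control features. Their summed scaled linear signal was at most 12.4 in UUO and at least 12.5 in Sham, a narrow gap. Of all tested miRNAs, 26.2% had all UUO arrays below all Sham arrays. Of 3 red blood cell miRNAs, 2 were called lower (27.7% of all tested miRNAs were), miR-451a (−0.84 ± 0.20 SE) and miR-144-3p (−0.81 ± 0.23 SE, limma adjusted p = 0.0147). The summed scaled linear signal of the 3, at 2.12 to 3.84 in UUO, overlapped that of 3.71 to 5.46 in Sham. With scaling to the dmr control features (median −0.41), or with no filter on dim miRNAs, 0 of these 3 were called lower. Of 3 striated muscle miRNAs, limma called 0, and 0 had an unadjusted p under 0.05, with miR-1a-3p at −0.19 ± 0.21 and miR-133b-3p at 0.02 ± 0.23 (SE). The summed signal of the 3 was 0.158 to 0.240 in UUO and 0.162 to 0.251 in Sham. Quantile normalization and normexp each gave 1 of the 3 called lower. The liver-specific miR-122-5p was well above background on no UUO array and at least 2.07-fold lower in UUO. It passed the filter through Sham arrays alone, with its UUO values at the floor, so no p-value is given. Its call was lost with the doubled floor (log2 fold change −0.11).

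The tested miRNAs with patterns most like the members are given as a description, by the root-mean-square difference of mean-centred log2 signals over the 8 arrays. For miR-192-5p, the 5 nearest outside the family were miR-29c-5p (0.109), miR-185-5p (0.109), miR-378a-5p (0.114), miR-365-3p (0.118) and miR-190a-5p (0.126), against a median of 0.648 over all tested non-members. The family's own miR-194-5p was nearer than all of these, at 0.0358, and so was miR-192-3p, at 0.0806. For miR-194-5p, the same first 4 miRNAs were the nearest outside the family, at 0.0829 to 0.0986, followed by miR-30c-5p at 0.118. Within the family, miR-192-5p was nearer to it than these, at 0.0358. At 0.0971, miR-192-3p was farther from it than miR-185-5p (0.0829), miR-29c-5p (0.0862) and miR-378a-5p (0.0961). All of these named miRNAs had log2 fold changes between −1.29 and −0.95. A change near that of the members was part of how they were chosen, since the distance includes the difference between the groups.

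**Figure D4:**
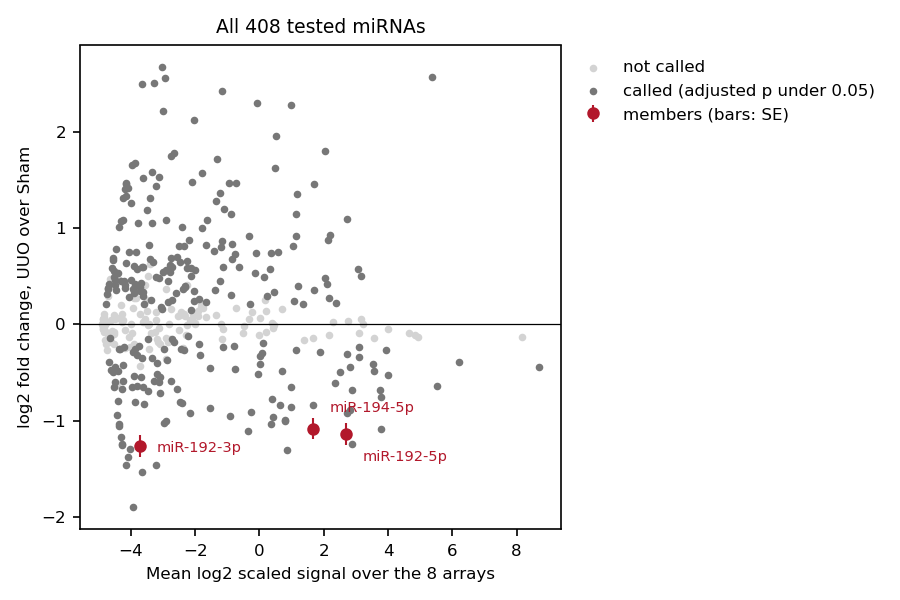
log2 fold change (UUO over Sham) of each of the 408 tested miRNAs against its mean log2 scaled signal over the 8 arrays, with the 3 tested members in red (bars, SE). The members lie between −1.26 and −1.08, among the 16 lowest changes.

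The call of the 3 members as lower held in all 22 alternatives tried, which comprised 14 other treatments of the data and the 8 fits that leave out 1 sample. The slide column terms among these treatments could change only the SE, not the fold change. Over the reported setting and the 14 treatments, the log2 fold change ran from −1.47 (the software's total signal) to −0.73 (scaling to the dmr control features) for miR-192-5p and from −1.41 to −0.68 for miR-194-5p. Much of this range was shared by all miRNAs, since the median of all tested moved from −0.23 to 0.45 under the same alternatives. Relative to that median, miR-192-5p lay between −1.24 and −0.97 and miR-194-5p between −1.17 and −0.99. For miR-192-3p the relative value was wider, −1.63 to −0.53.

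**Figure D5:**
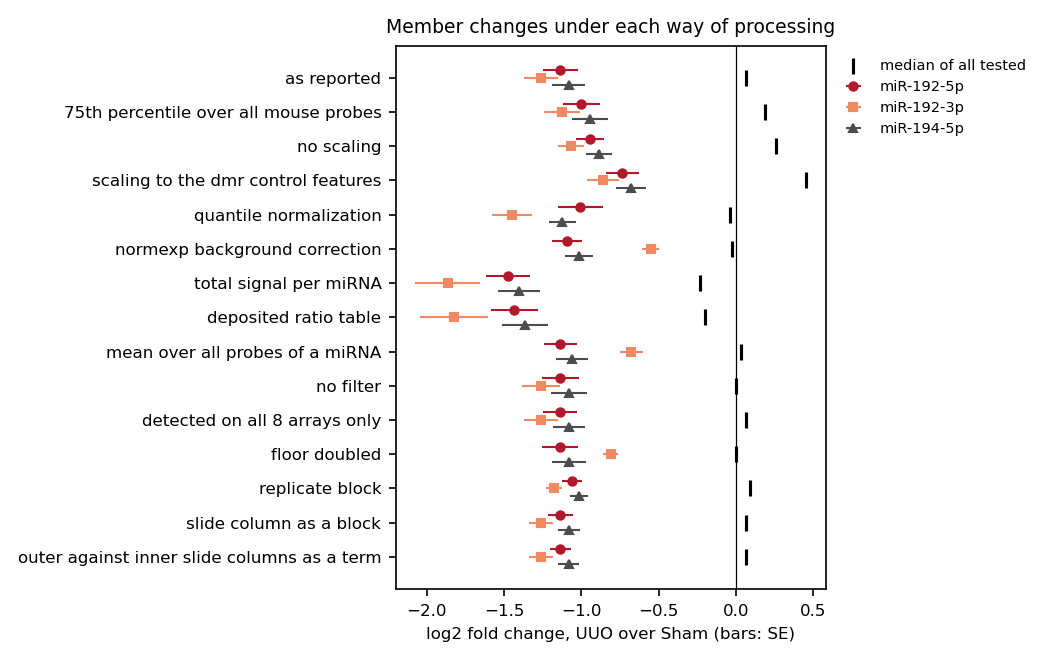
log2 fold change (UUO over Sham) of the 3 tested members under the reported setting and 14 alternatives, with the median of all tested miRNAs under the same setting. All values of the members are below 0, and miR-192-3p spans the widest range, −1.87 to −0.55.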

How the data were processed

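Total RNA was labelled with Cy3 and hybridised to 1-colour miRNA arrays, per the labels' protocols. Per the file headers, the authors' spot intensity values came from Agilent Feature Extraction 10.7.3.1 (a version also given in the submitters' processing notes), with a spatial background subtracted and design positions on mm9. The deposited series table holds a ratio per miRNA: the software's total intensity times 1 factor per array (basis not given in the sources used here), divided by the miRNA's median. It served as an alternative.

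Outlier spots, 2.64 to 2.95% of an array, were dropped and the others averaged per probe. Probes detected on an array had more than 50% of spots well above background. Intensities were divided by the 75th percentile of the array, taken over the 623 probes that were detected on every array, raised to a floor (log2 −4.89) and put on the log2 scale. A miRNA took its brightest probe, and the 408 detected on at least 4 of 8 arrays were fitted with limma 3.58.1 (R 4.3.3), group as the only term. The fit was tested on simulated data. The number of arrays limits the precision. Members, lists and the rule for named miRNAs (all members, up to 3 called per list, or its 2 brightest where none was called, and the 5 nearest patterns of miR-192-5p and of miR-194-5p) were chosen with earlier results of these data known. Some miRNAs that were not called are also given, outside this rule. Samples were grouped by their titles. Alternatives changed the scaling, background correction, summary per miRNA, filter, floor, blocks and samples.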

Additional observations from a re-analysis of the deposited data

Results flagged for a closer look

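Of 120 groups of 4 values checked, 7 held 1 sample whose gap to its nearest neighbour exceeded Dixon's critical share of the group's range, and chance gives about 6. Among the members, 3 of these were Sham 1 for miR-194-2-3p: an intensity of 8.68 against 11.4 to 11.8 on the other Sham arrays for the brighter probe, a software total of 0.1 against 3.27 to 3.33, and a ratio of 1.11 against 36.3 to 42.6 in the authors' deposited table. Another was UUO 4 for the shorter miR-215-3p probe, a background reading of −0.91 against −0.49 to −0.41 on the other UUO arrays. Outside the members, they were the log2 signals of miR-214-3p on Sham 8 (−2.31 against −2.38 on the others), miR-21a-5p on Sham 2 (4.04 against 4.09) and miR-378a-5p on Sham 8 (−2.43 against −2.48 to −2.47).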

How the results depend on the processing

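The number of miRNAs called was 162 higher and 113 lower as reported, 265 and 47 with scaling to the dmr control features, 194 and 84 with the percentile over all mouse probes, 212 and 77 without scaling, 123 and 160 with quantile normalization, 122 and 156 with normexp, 109 and 217 with the software's total signal and 118 and 207 with the deposited ratios. Leaving out 1 sample gave 147 to 171 higher and 106 to 117 lower. The sample numbers shared by the groups did not pair them (correlation of deviations 0.00, 0.12 and −0.30), and the replicate block gave 142 higher, 84 lower, −1.06 for miR-192-5p, −1.18 for miR-192-3p and −1.01 for miR-194-5p, all 3 still called.

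Quantile normalization gave a within-array change of 0.44 for miR-192-5p minus miR-192-3p (adjusted exact permutation p = 0.0429), 0.12 for miR-192-5p minus miR-194-5p and −0.36 for miR-194-5p against miR-30. Normexp, the mean over probes and the doubled floor gave −0.54, −0.46 and −0.33 for miR-192-5p minus miR-192-3p, 0.47, 0.39 and 0.27 for miR-192-3p minus miR-194-5p, and 0.26, 0.17 and 0.035 for miR-192-3p against miR-30. The adjusted exact permutation p was 0.0286 for each of these values of the 2 pairs, and 0.0429, 0.229 and 0.714 for those against miR-30. The cause of the sign changes was not tested. Against miR-200, the mean over probes gave −1.03, −0.57 and −0.96 and the doubled floor −1.01, −0.68 and −0.95 for miR-192-5p, miR-192-3p and miR-194-5p, with an adjusted exact permutation p of 0.0571 in each. Leaving out 1 sample gave 0.11 to 0.16 for miR-192-5p minus miR-192-3p, −0.064 to −0.041 for miR-192-5p minus miR-194-5p and −0.20 to −0.17 for miR-192-3p minus miR-194-5p. It gave −0.38 to −0.22, −0.48 to −0.34 and −0.31 to −0.17 against miR-30, and −1.11 to −0.93, −1.22 to −1.04 and −1.05 to −0.86 against miR-200, for miR-192-5p, miR-192-3p and miR-194-5p. The call of miR-192-5p minus miR-194-5p was lost without UUO 1, 2 or 4 or Sham 3, and that of miR-192-3p minus miR-194-5p without UUO 1, 2 or 4. Without Sham 3 miR-192-5p minus miR-192-3p was called, and without Sham 1 miR-192-5p against miR-30 was. With 7 arrays there are 35 arrangements, and the smallest exact p is the same 0.0286.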
